A study of Homo sapiens with 6 samples.

Results

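The genes described are the heat shock protein families that fold proteins in the cytosol, nucleus and mitochondria, together with the heat shock factors HSF1 and HSF2, in TC-71 cells with and without knockout of XG. They were taken by symbol from the protein-coding genes of the count table: every HSPA, HSPB, HSPD, HSPE, HSPH and HSP90A gene, every DNAJA, DNAJB and DNAJC gene, and the 2 factors, leaving out HSPA5, HSPA13, DNAJB9, DNAJB11, DNAJC3 and DNAJC10 of the endoplasmic reticulum. This gave 71 of 60662 genes in the table, of which 57 had enough counts to be tested and 14 did not. The choice by symbol also kept some proteins of other membranes, such as DNAJC1 and DNAJB12 of the endoplasmic reticulum, and 3 readthrough genes that join a member to its neighbour.

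TC-71 is an established human Ewing sarcoma line, grown here in IMDM with 10% fetal bovine serum and no treatment in either group. The XG knockout and the wildtype genotype each had 3 libraries, made by stranded, paired-end sequencing of mRNA, and the series asks how the transcriptome differs between them. Nothing in the labels says whether the knockout is 1 clone or a pool, or whether the libraries of a group came from separate cultures, so p-values reflect spread among the 6 libraries, possibly a technical one. In bulk RNA, fewer cells that express a gene and less of its RNA per cell cannot be told apart.

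HSP70 proteins bind exposed hydrophobic stretches of unfolded chains and release them in cycles of ATP hydrolysis. J-domain proteins of the DNAJ families deliver clients to HSP70 and start its hydrolysis, HSP110 proteins release its nucleotide, and HSP90 takes on clients, many of them kinases and receptors, at a later stage. Under stress HSF1 forms trimers that bind heat shock elements, inverted repeats of GAA units set apart by spacers, and drives transcription of HSPA1A, HSPA1B, DNAJB1, HSPB1 and others.

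Promoter sequences are shown because heat shock elements are the shared control feature of the inducible members. The RefSeq table (GRCh38.p14), with 250 bases before and 50 bases after each transcription start, held 80 promoters of 60 of the 70 member symbols. The shortest form searched was 2 inverted units, GAANNTTC or TTCNNGAA, each its own reverse complement, on both strands; the longer form was 3 units, GAANNTTC followed by NNGAA, or its reverse complement TTCNNGAA followed by NNTTC, which always holds the shorter form. The 2-unit form stood in 28.7% of the member promoters and in 13.5% of all 35116 promoters, and the 3-unit form in 8.75% and 0.49%. Among tested members, 7 symbols had a 3-unit match: HSP90AA1, HSP90AB1, HSPA8, HSPA6, HSPD1, DNAJA1 and DNAJB6. A match is a string of letters in this window and does not show that a factor binds there.

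The first 3 promoters printed belong to the abundant cytosolic and mitochondrial members with a 3-unit match: HSP90AA1 (chr14:102086995-102087294, minus strand), HSPA8 (chr11:123062087-123062386, minus strand) and HSPD1 (chr2:197499791-197500090, minus strand). The next 3 belong to inducible members with a 2-unit match only: HSPA1A (chr6:31815293-31815592, plus strand), DNAJB1 (chr19:14518348-14518647, minus strand) and HSPB1 (chr7:76302423-76302722, plus strand). DNAJC12 (chr10:67838139-67838438, minus strand) is shown as a member without either form. All are 300 bases on the strand of the gene, written 5′ to 3′, with the matches in capitals; where RefSeq has several starts, 1 whose promoter holds a match is given, and for DNAJB1 a second promoter, not shown, also holds a 2-unit match.
HSP90AA1: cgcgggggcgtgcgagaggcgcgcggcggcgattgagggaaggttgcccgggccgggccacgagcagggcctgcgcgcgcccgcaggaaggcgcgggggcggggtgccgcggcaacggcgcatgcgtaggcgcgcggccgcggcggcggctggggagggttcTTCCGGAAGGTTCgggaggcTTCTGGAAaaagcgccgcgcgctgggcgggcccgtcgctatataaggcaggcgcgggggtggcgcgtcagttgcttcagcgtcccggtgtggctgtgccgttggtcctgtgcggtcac
HSPA8: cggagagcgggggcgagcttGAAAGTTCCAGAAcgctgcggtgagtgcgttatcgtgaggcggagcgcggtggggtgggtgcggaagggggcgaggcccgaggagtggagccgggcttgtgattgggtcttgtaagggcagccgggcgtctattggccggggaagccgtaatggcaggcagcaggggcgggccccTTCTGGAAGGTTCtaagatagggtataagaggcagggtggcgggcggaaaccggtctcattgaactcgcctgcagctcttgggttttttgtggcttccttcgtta
HSPD1: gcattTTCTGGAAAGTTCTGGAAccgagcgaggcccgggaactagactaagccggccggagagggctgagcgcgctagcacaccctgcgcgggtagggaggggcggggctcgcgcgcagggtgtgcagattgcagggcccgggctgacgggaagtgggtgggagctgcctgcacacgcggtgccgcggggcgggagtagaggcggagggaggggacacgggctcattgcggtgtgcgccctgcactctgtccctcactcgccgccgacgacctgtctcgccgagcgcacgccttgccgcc
HSPA1A: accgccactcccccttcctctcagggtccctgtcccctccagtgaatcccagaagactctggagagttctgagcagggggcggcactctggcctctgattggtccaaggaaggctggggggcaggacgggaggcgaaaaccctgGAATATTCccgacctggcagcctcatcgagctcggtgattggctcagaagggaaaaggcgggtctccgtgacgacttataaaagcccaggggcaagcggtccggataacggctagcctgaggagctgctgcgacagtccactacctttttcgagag
DNAJB1: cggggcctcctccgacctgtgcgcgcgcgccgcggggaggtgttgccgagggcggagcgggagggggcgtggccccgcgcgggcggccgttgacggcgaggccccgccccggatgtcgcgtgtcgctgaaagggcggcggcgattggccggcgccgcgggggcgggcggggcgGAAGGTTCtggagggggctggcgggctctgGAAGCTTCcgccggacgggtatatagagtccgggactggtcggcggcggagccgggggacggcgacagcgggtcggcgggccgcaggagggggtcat
HSPB1: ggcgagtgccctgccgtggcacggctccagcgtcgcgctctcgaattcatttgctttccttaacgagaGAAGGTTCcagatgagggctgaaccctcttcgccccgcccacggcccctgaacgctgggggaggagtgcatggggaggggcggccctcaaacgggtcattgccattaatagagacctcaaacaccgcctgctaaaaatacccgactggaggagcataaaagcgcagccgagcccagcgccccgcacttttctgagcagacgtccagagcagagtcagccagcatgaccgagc
DNAJC12: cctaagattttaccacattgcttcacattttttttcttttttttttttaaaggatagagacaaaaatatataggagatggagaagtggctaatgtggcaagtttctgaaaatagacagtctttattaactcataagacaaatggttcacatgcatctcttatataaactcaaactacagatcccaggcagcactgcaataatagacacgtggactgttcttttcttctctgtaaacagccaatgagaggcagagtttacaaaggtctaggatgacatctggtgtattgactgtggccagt

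The first match in HSPA1A began at position -106 from the start of transcription, in DNAJB1 at -77, in HSPB1 at -182 and in HSP90AA1 at -88. HSPA8 held 2 separate 3-unit matches, the first from -230 and the other nearer to the start. The HSPD1 promoter had its matches at the far end, from -245, next to the start of HSPE1, which is read in the opposite direction from position 197500140 of chromosome 2.

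Before any result on the members, the libraries were checked. XG, the targeted gene, had 746, 948 and 836 counts in the knockout libraries, against 1254, 1228 and 999 in wildtype, so its RNA fell to 64.8% of wildtype and remained in every knockout library (log2 fold change -0.63, SE 0.0478, edgeR adjusted p = 1.65e-06). Library totals were 22557187 to 31214099 counts. All 8 Ewing sarcoma markers had counts in every library, summing to 2594 to 2615 CPM (counts scaled to a common library size) in knockout and 2672 to 2725 CPM in wildtype; CD99 was the 1 called, lower in knockout (edgeR adjusted p = 0.0302), and was not called with GC correction (adjusted p = 0.142; 0.00131 to 0.52 over the alternatives). The 10 markers of blood, endothelial and epithelial cells summed to 0.138 to 0.562 CPM in knockout and 0.345 to 0.507 CPM in wildtype, with CD3E, VWF and HBB among those at 0. Knockout replicate 3 differed less from the wildtype libraries (chi-square per gene 2.16 to 2.39) than from knockout replicates 1 and 2 (4.75 and 4.35), and counts of members and of related genes called are given with and without it.

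No member passed the test between XG knockout and wildtype. The adjusted p was under 0.05 for 0 of 57 members by edgeR, where 1.36% of all 14425 genes tested passed (0.444% higher and 0.915% lower). DESeq2 and limma voom also called 0 of 57, with 1.39% and 1.5% of all genes called. At an unadjusted p under 0.05, edgeR had 10 of 57 members (17.5%, against 16.8% of all genes), DESeq2 had 7 (against 10.2%) and voom had 12 (against 17%). The share of members was near that of all genes by edgeR. The authors' deposited table gave an adjusted p to 40 members, none of them under 0.05, where 2.66% of its genes with an adjusted p were under it.

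With all 6 libraries fitted, the differences that the data allow were small for most members. The 95% interval of the fold change stayed within 1.1-fold in either direction for 23 of 57 members, within 1.2-fold for 46 and within 2-fold for 56, the exception being the low-count gene HSPA6. The 27 positive and 30 negative log2 fold changes had a median of -0.0049, against 0.0019 over all genes tested, and the members' median was above 0, at 0.0048, with upper quartile scaling. Median absolute log2 fold change was 0.049 for members and 0.072 for all genes. Members also had the smaller median SE, 0.0498 against 0.0636, and the fold changes were not compared at equal SE. The bounds on the fold changes depend on knockout replicate 3. Without it the median absolute log2 fold change was 0.056 for members (median SE 0.0472) and 0.089 for all genes (median SE 0.0655). In that fit 8 of 57 members were called (6 lower and 2 higher), where 12.7% of all genes were called. HSPB1, whose interval was within 1.2-fold with all libraries, then had a log2 fold change of -0.24.

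The knockout and wildtype libraries did not overlap for 7 of 57 members (12.3%), while the groups of 20.5% of all genes tested did not overlap (10.7% higher and 9.8% lower). DNAJC13 was the member whose knockout libraries were all higher, and DNAJB1, DNAJC5, DNAJC12, HSP90AB1, HSPA1A and HSPB6 had all knockout libraries lower.

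**Figure D1:**
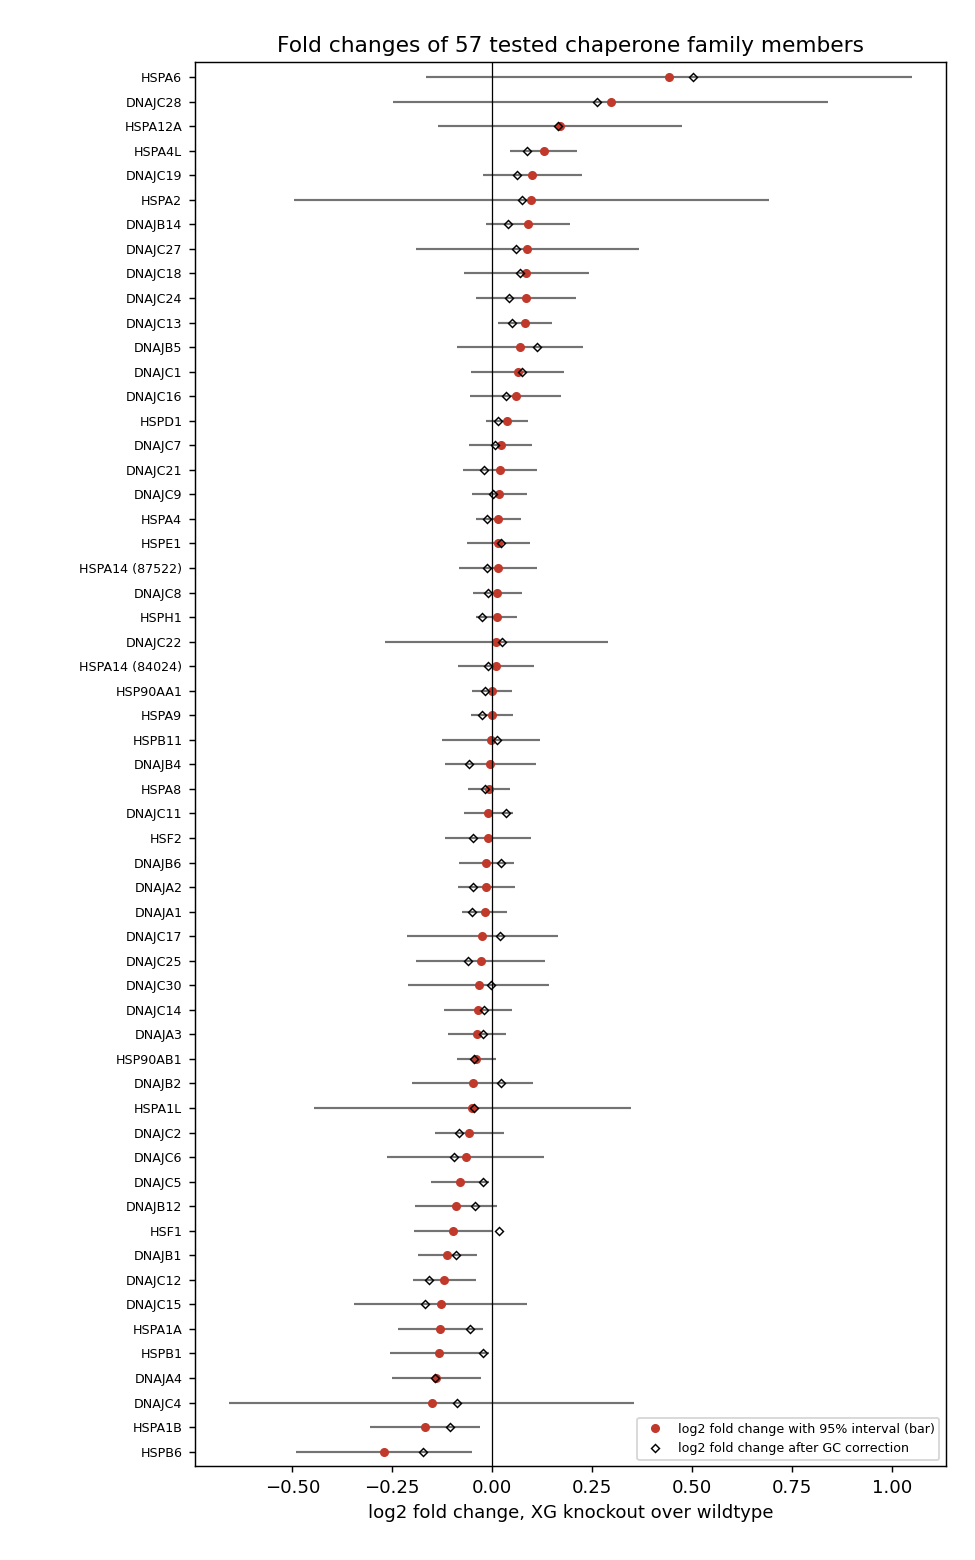
Log2 fold change of XG knockout over wildtype (x axis) for the 57 tested members (y axis, ordered by fold change); filled red points are the edgeR values with their 95% intervals as bars, and open diamonds are the values after a correction for GC content. Most points lie close to 0, and the widest bars belong to low-count members such as HSPA6, DNAJC4, HSPA2 and DNAJC28.

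Members together made up 2.07, 2.05 and 2% of all counts in knockout replicates 1, 2 and 3, and 2.04, 2.02 and 2.01% in wildtype replicates 1, 2 and 3. Their summed level was 20266 ± 395 CPM in knockout and 20349 ± 164 CPM in wildtype (SD, n = 3 each). HSP90AA1, HSPA8, HSP90AB1, HSPD1 and HSPH1 held 78.3% of this sum. To compare genes, CPM was divided by the exon length of the count table (CPM per kilobase), a length that includes exons of rarely used isoforms.

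On that scale HSP90AB1 was the highest member, at 1124 ± 21.3 CPM per kilobase in knockout and 1156 ± 6.35 in wildtype. HSP90AA1 followed at 966 ± 19.7 in knockout and 965 ± 15.3 in wildtype, and HSPA8 at 873 ± 25.9 in knockout and 877 ± 5.34 in wildtype. The mitochondrial chaperonin HSPD1 came next, with 558 ± 15.2 CPM per kilobase in knockout and 544 ± 4.19 in wildtype. DNAJA1 led the J-domain proteins at 185 ± 4.89 in knockout and 188 ± 2.19 in wildtype, and tested members reached down to HSPA2 at 0.13 ± 0.032 in knockout and 0.122 ± 0.0137 in wildtype. Of the 14 members not tested, 6 had 0 counts in all 6 libraries: DNAJB7, DNAJB8, HSPB2, HSPB7, HSPB8 and the readthrough HSPB2-C11orf52. The other 8 (DNAJB13, DNAJC5B, DNAJC5G, HSPA12B, HSPB3, HSPB9, DNAJC25-GNG10 and HSPE1-MOB4) reached at most 0.267 CPM in any library, in DNAJC5G of wildtype replicate 3. Fragments that lie on several genes were not counted, and 85.3% of the exon bases of HSPB2, 99.2% of HSPB2-C11orf52, 99.8% of DNAJC25-GNG10 and 100% of HSPE1-MOB4 are shared with other genes, so their levels were hardly measured.

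**Figure D2:**
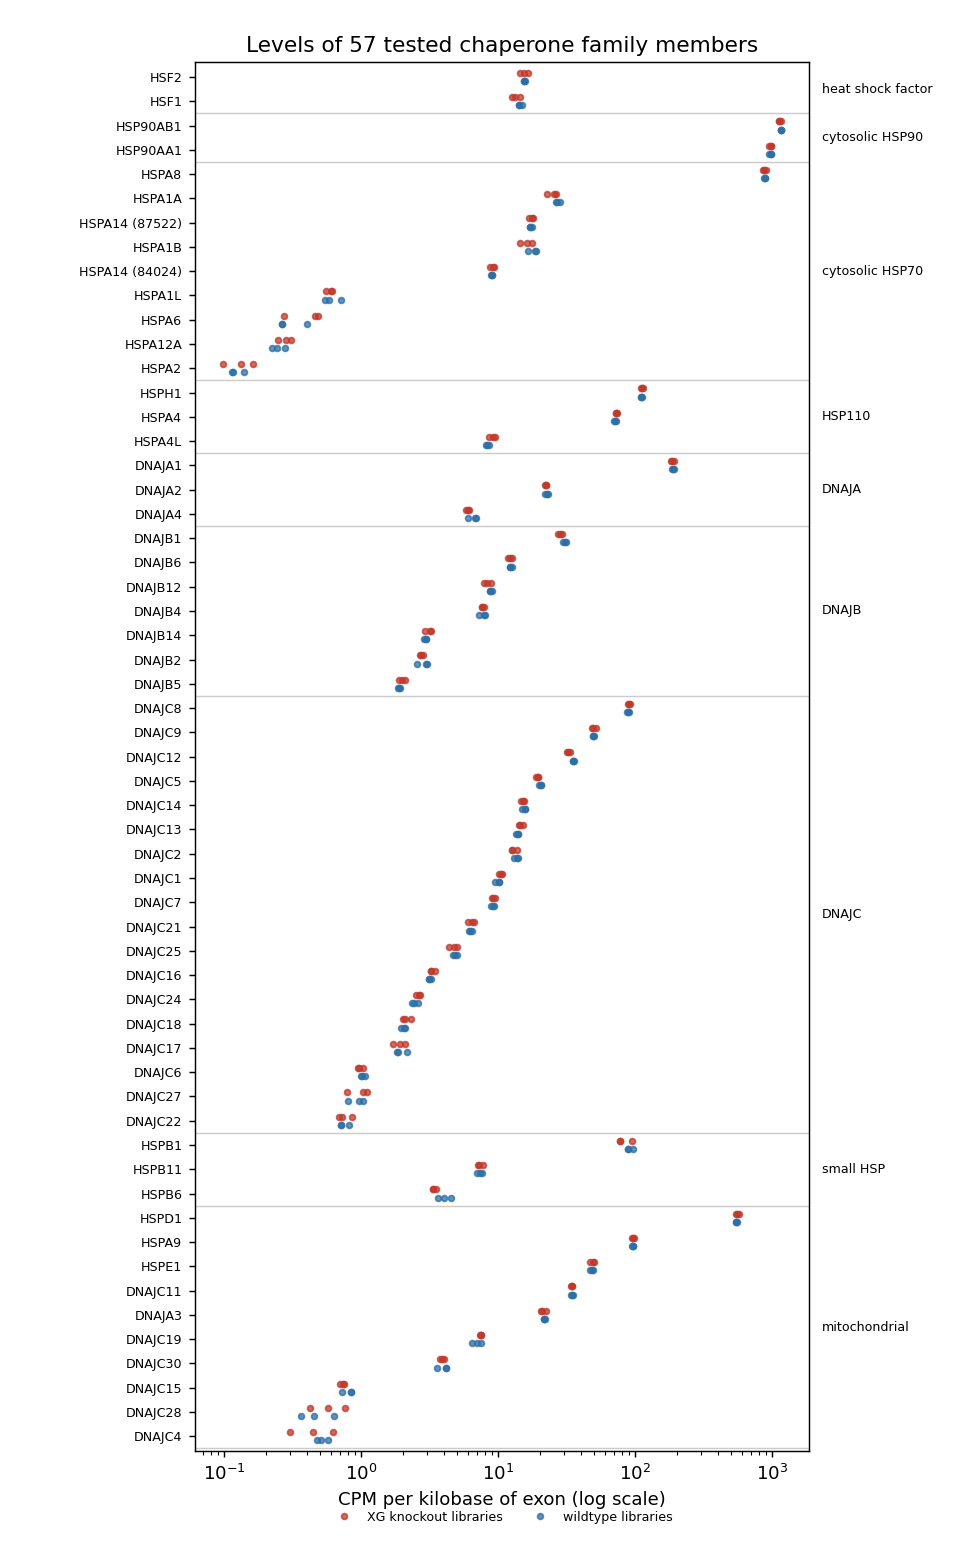
Level in CPM per kilobase of exon (x axis, log scale) of the 57 tested members (y axis, grouped by role and ordered by level within each role); each point is 1 library, with the 3 XG knockout libraries in red above the 3 wildtype libraries in blue. Levels run from HSP90AB1, at 1124 in knockout and 1156 in wildtype, to HSPA2, at 0.13 in knockout and 0.122 in wildtype, and the colours lie close together in each row.

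Of the heat shock factors, HSF1 is the main activator of the stress response and HSF2 can form trimers with it. HSF1 had 66.3, 70.5 and 76.4 CPM in the knockout libraries and 74.8, 78.3 and 75.2 CPM in wildtype (log2 fold change -0.097, SE 0.0463, edgeR adjusted p = 0.298). Knockout replicates 1 and 2 lay below every wildtype library, and replicate 3 lay among them. Without knockout replicate 3 the log2 fold change of HSF1 was -0.15 (edgeR adjusted p = 0.00637), with replicate 3 alone against wildtype it was 0.0067 (adjusted p = 0.98), and over all 23 settings the adjusted p ran between 0.00637 and 0.996. After the GC correction described further on, HSF1 stood at 0.018 (adjusted p = 0.867). HSF2 had 44.2, 41.2 and 38.6 CPM in knockout and 41.9, 41.6 and 41.2 CPM in wildtype, with knockout libraries on both sides of the wildtype range.

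Of the 2 cytosolic HSP90 genes, HSP90AB1 encodes the constitutive and HSP90AA1 the more inducible form. HSP90AA1 had 5161, 5090 and 4957 CPM in knockout and 5135, 5088 and 4978 CPM in wildtype (log2 fold change 0.00058, SE 0.0239, edgeR adjusted p = 0.994), and its groups overlapped fully. HSP90AB1 had 3423, 3322 and 3306 CPM in knockout and 3448, 3462 and 3425 CPM in wildtype. All 3 knockout libraries of HSP90AB1 were below the wildtype range, by a margin that did not pass the test (log2 fold change -0.040, SE 0.0232, edgeR adjusted p = 0.41). The interval of its fold change was 0.94 to 1.01. The ratio of HSP90AA1 to HSP90AB1 per kilobase was 0.856, 0.870 and 0.851 in knockout and 0.846, 0.835 and 0.825 in wildtype, and was not tested.

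Among cytosolic HSP70 genes, 9 of 10 entries were tested, 5 with positive and 4 with negative log2 fold changes. HSPA8, the constitutive HSC70, had 4374, 4188 and 4135 CPM in knockout and 4259, 4276 and 4225 CPM in wildtype, so the knockout libraries spanned the wildtype range (log2 fold change -0.0071, SE 0.0247, edgeR adjusted p = 0.916). Of its exon bases, 3.61% are shared with small nucleolar RNA genes on the same strand.

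HSPA1A and HSPA1B, the stress-inducible pair in the class III region of the major histocompatibility complex on chromosome 6, were lower on average in knockout without passing the test. HSPA1A had 61.1, 54.7 and 63.1 CPM in knockout and 63.4, 67.9 and 64.1 CPM in wildtype, groups that did not overlap, with the nearest libraries at 63.1 in knockout and 63.4 in wildtype (log2 fold change -0.13, SE 0.0502, edgeR adjusted p = 0.197). HSPA1B had 40.7, 36 and 44.4 CPM in knockout and 47.5, 46.5 and 41.6 CPM in wildtype, with overlap (log2 fold change -0.17, SE 0.0659, edgeR adjusted p = 0.202). Without knockout replicate 3 both were called lower, at -0.17 (edgeR adjusted p = 0.00548) for HSPA1A and -0.25 (adjusted p = 0.00118) for HSPA1B. Over the 23 settings the adjusted p ran between 0.00548 and 0.948 for HSPA1A and between 0.00118 and 0.915 for HSPA1B.

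The counts of these genes miss fragments that fit elsewhere. The longest transcripts of HSPA1A and HSPA1B share an identical run of 1715 bases, and 72.6% of the 50-base windows of HSPA1A occur in HSPA1B. Fragments that map to both places were not counted. Of the exon bases of HSPA1B, 36.6% also belong to AL671762.1 on the same strand, and fragments on both genes were left out. HSPA8 was 35.3 ± 2.74 times as high per kilobase as HSPA1A in knockout and 32.4 ± 1.08 times in wildtype (SD, n = 3 each), and the uncounted fragments of HSPA1A are missing from this ratio.

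HSPA6, which is transcribed mainly under severe stress, was near the limit of detection, at 0.643, 1.08 and 1.14 CPM in knockout and 0.615, 0.614 and 0.934 CPM in wildtype. HSPA14, a ribosome-associated HSP70, is the symbol of 2 entries in the annotation, both among the 10 cytosolic HSP70 entries. They share 318 exon bases, 12.7% of ENSG00000187522.16 and 6.46% of ENSG00000284024.2, so their counts come from mostly different exons. The entry ENSG00000187522.16 averaged 43.6 ± 1.61 CPM in knockout and 43.2 ± 1.05 CPM in wildtype (SD, n = 3 each), and the entry ENSG00000284024.2 had 44.4 ± 1.53 CPM in knockout and 44.1 ± 0.283 CPM in wildtype.

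The HSP110 genes all had positive log2 fold changes, between 0.011 and 0.13, and none passed the test. HSPH1 had 951, 930 and 924 CPM in knockout and 939, 921 and 922 CPM in wildtype, and HSPA4 had 372, 366 and 366 CPM in knockout and 370, 363 and 359 CPM in wildtype. HSPA4L, a relative of HSPA4 with high expression in testis, had the smallest p of all members. It had 108, 105 and 97.9 CPM in knockout and 92.5, 93.8 and 98.3 CPM in wildtype, so knockout replicates 1 and 2 were above every wildtype library and replicate 3 was inside their range. The log2 fold change of HSPA4L was 0.13, with an SE of 0.0401 and an edgeR adjusted p of 0.114. It was called higher without knockout replicate 3 (0.17, edgeR adjusted p = 0.000426) and with no filter on low counts (0.13, adjusted p = 0.0395), where 2 of 65 members and 2.37% of all 27252 genes were called. Over the 23 settings its adjusted p ran between 0.000426 and 0.766, with a positive fold change in all of them.

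The DNAJA and DNAJB proteins are the J-domain partners that bind unfolded clients themselves. DNAJA1 had 508, 495 and 482 CPM in knockout and 507, 501 and 495 CPM in wildtype, with overlap of the groups (log2 fold change -0.018, SE 0.0269, edgeR adjusted p = 0.787). DNAJB1, the inducible partner of HSPA1A and HSPA8, had 106, 99.8 and 103 CPM in knockout and 108, 113 and 112 CPM in wildtype. All knockout libraries of DNAJB1 were below the wildtype range, and the difference missed the threshold (log2 fold change -0.11, SE 0.0352, edgeR adjusted p = 0.117). Without knockout replicate 3 the log2 fold change of DNAJB1 was also -0.11 and passed (adjusted p = 0.022), with an adjusted p between 0.022 and 0.392 over the 23 settings.

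DNAJB6, a suppressor of polyglutamine aggregation, had 189, 184 and 175 CPM in knockout and 188, 182 and 183 CPM in wildtype, and its groups overlapped. DNAJA4 had 39.9, 38.3 and 39.3 CPM in knockout and 44.3, 45.4 and 39.4 CPM in wildtype, the third wildtype library lying beside the knockout libraries (log2 fold change -0.14, SE 0.0532, edgeR adjusted p = 0.188). It was called lower with GC correction and wildtype replicate 3 left out (-0.20, adjusted p = 0.0298), and its adjusted p ran between 0.0298 and 0.554 over the 23 settings. DNAJB4, DNAJB5, DNAJB2, DNAJB12, DNAJB14 and DNAJA2 had log2 fold changes between -0.089 (DNAJB12) and 0.090 (DNAJB14), with DNAJB12 called lower without knockout replicate 3.

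The DNAJC group is the most varied in function, and 18 of its 20 genes were tested, 11 with positive and 7 with negative log2 fold changes. DNAJC8, found with splicing factors, was the highest, at 263, 258 and 253 CPM in knockout and 262, 254 and 250 CPM in wildtype. DNAJC7, a co-chaperone with tetratricopeptide repeats that binds both HSP70 and HSP90, had 83.8, 86.7 and 82.3 CPM in knockout and 84.6, 80.3 and 84.1 CPM in wildtype. Both overlapped between the groups.

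DNAJC12, which accompanies the aromatic amino acid hydroxylases, had 71.2, 69.4 and 67.1 CPM in knockout and 76.1, 74.8 and 74.4 CPM in wildtype. Its 3 knockout libraries were all below the wildtype range, replicate 3 being the lowest (log2 fold change -0.12, SE 0.0380, edgeR adjusted p = 0.12). After GC correction it was the 1 member of 57 called, where 2.35% of all genes were called (-0.16, SE 0.033, edgeR adjusted p = 0.00415). With GC correction and wildtype replicate 1 left out it was not called (adjusted p = 0.0517). The adjusted p ran between 0.00343 and 0.344 over the 23 settings, and the fold change was negative in all of them.

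DNAJC13, an endosomal protein involved in receptor recycling, had 139, 144 and 136 CPM in knockout and 133, 133 and 130 CPM in wildtype, so all knockout libraries were above the wildtype range (log2 fold change 0.083, SE 0.0324, edgeR adjusted p = 0.198). Without knockout replicate 3 it was called higher (0.10, adjusted p = 0.0224; 0.0224 to 0.722 over the 23 settings). DNAJC5, the cysteine string protein of secretory vesicles, had 104, 100 and 105 CPM in knockout and 106, 110 and 110 CPM in wildtype (log2 fold change -0.081, SE 0.0342, edgeR adjusted p = 0.242). The other DNAJC genes tested had log2 fold changes between -0.066 for DNAJC6, an uncoating factor of clathrin vesicles, and 0.089 for DNAJC27.

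Small heat shock proteins hold unfolded proteins in soluble complexes without ATP, and 3 of the 8 genes with such symbols were tested. HSPB1, or HSP27, had 116, 116 and 143 CPM in knockout and 133, 144 and 134 CPM in wildtype. Knockout replicates 1 and 2 were below all wildtype libraries, and replicate 3 was close to the highest of them (log2 fold change -0.13, SE 0.0588, edgeR adjusted p = 0.267). Without replicate 3 the log2 fold change of HSPB1 was -0.24 (edgeR adjusted p = 1.29e-06), with replicate 3 alone against wildtype it was 0.059 (adjusted p = 0.598), and with GC correction it was -0.023 (adjusted p = 0.808). It was also called lower with no filter on low counts (-0.13, adjusted p = 0.0202), and its adjusted p ran between 1.29e-06 and 0.951 over the 23 settings.

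HSPB6, or HSP20, known from muscle, was rare, at 5.7, 5.72 and 6.01 CPM in knockout and 6.88, 7.83 and 6.27 CPM in wildtype. Its groups did not overlap, and its log2 fold change of -0.27 was the lowest of the members tested (SE 0.104, edgeR adjusted p = 0.192). HSPB11, a subunit of the intraflagellar transport complex despite its symbol, averaged 23.7 ± 0.999 CPM in knockout and 23.7 ± 1.04 CPM in wildtype (SD, n = 3 each).

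**Figure D3:**
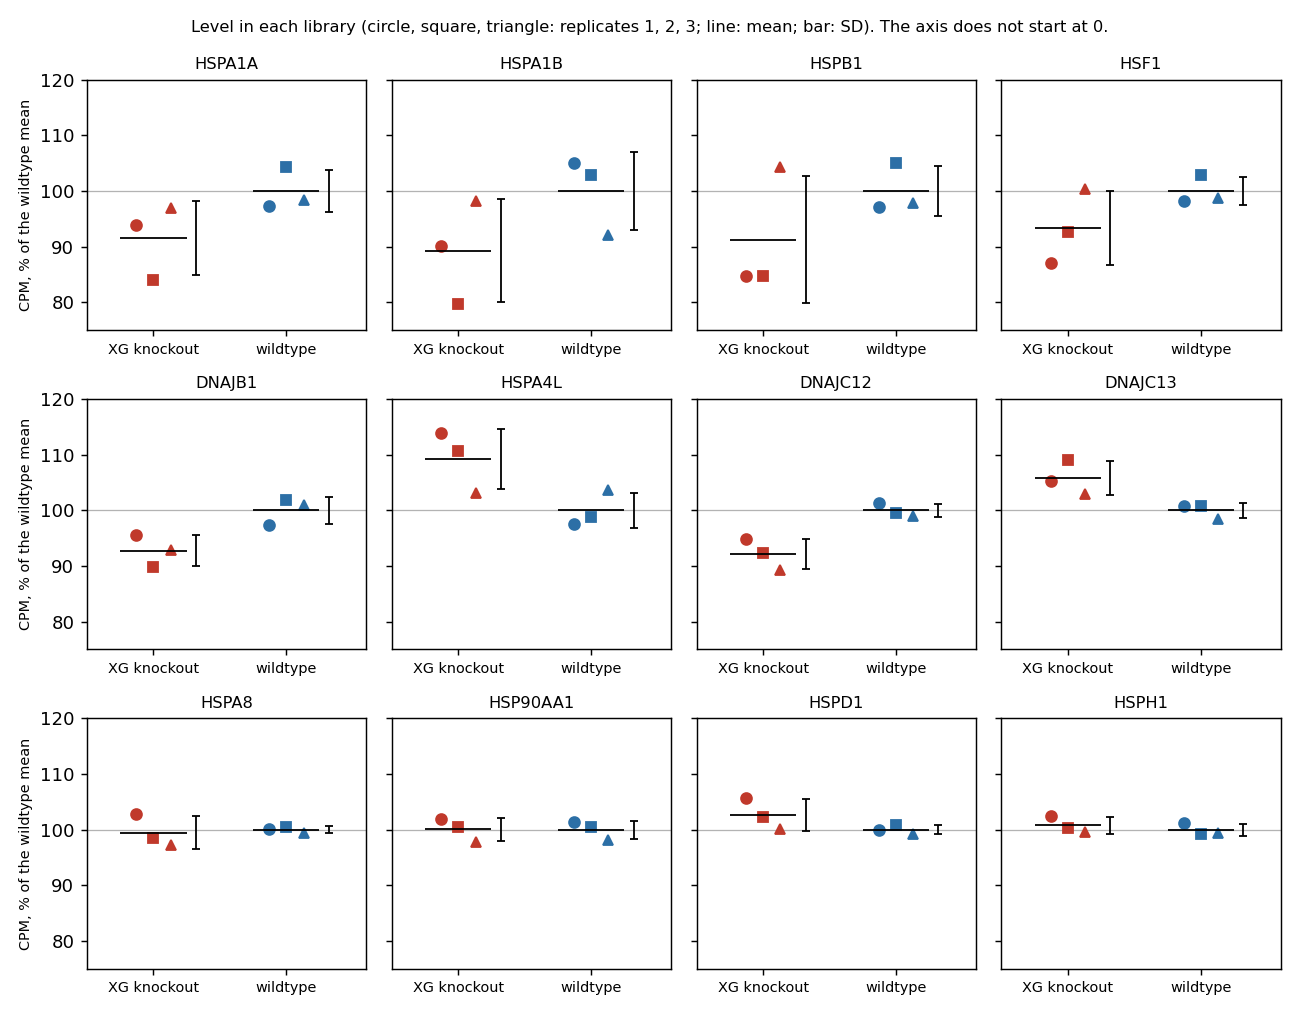
Level in each library of 12 members as CPM in percent of the wildtype mean (y axis, not starting at 0), with the XG knockout libraries in red left of the wildtype libraries in blue; circles, squares and triangles are replicates 1, 2 and 3, lines are means and bars SDs. In HSPB1 and HSF1, knockout replicate 3 lies above the knockout mean and near the wildtype libraries, whereas in DNAJC12 it is the lowest of the 6; HSPA8, HSP90AA1, HSPD1 and HSPH1 stay near 100 in both groups.

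Mitochondrial members import, fold and assemble proteins of the matrix, HSPA9 (mortalin) pulling chains through the inner membrane and HSPD1 (HSP60) with its lid HSPE1 (HSP10) folding them. All 10 were tested, 5 with positive and 5 with negative log2 fold changes. HSPD1 had 2368, 2293 and 2243 CPM in knockout and 2240, 2260 and 2225 CPM in wildtype, with knockout replicate 3 inside the wildtype range (log2 fold change 0.038, SE 0.0248, edgeR adjusted p = 0.479). HSPA9 had 762, 779 and 746 CPM in knockout and 767, 755 and 764 CPM in wildtype, around the same centre (log2 fold change 0.00032, SE 0.0252, edgeR adjusted p = 0.996).

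HSPE1 had 90, 90.3 and 85.3 CPM in knockout and 87.8, 85.3 and 89.6 CPM in wildtype. HSPD1 was 11.5 ± 0.232 times as high per kilobase as HSPE1 in knockout and 11.3 ± 0.369 times in wildtype (SD, n = 3 each). Of the exon bases of HSPE1, 10.5% are shared with the readthrough gene HSPE1-MOB4, and fragments there were not counted. Fragments that map to several places were not counted either. How many each gene lost in this way was not measured, so the ratio of HSPD1 to HSPE1 may differ from that of their RNA. DNAJA3, the mitochondrial J-domain partner of HSPA9, had 147, 144 and 156 CPM in knockout and 155, 152 and 151 CPM in wildtype. DNAJC11, of the complex that shapes the inner membrane, averaged 174 ± 1.61 CPM in knockout and 175 ± 1.85 CPM in wildtype, and DNAJC19, of the import motor, 26.7 ± 0.234 CPM in knockout and 24.9 ± 1.88 CPM in wildtype (SD, n = 3 each); neither passed the test.

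Members that differ in promoter sequence were set side by side as a description. The 7 tested members with a 3-unit match had a median of -0.0071 in log2 fold change, between -0.040 (HSP90AB1) and 0.44 (HSPA6). The 19 with at least a 2-unit match had a median of -0.040, and the 31 with neither form 0.014. None of them was called, and the 19 include the 7. The differences between these medians were not tested, and the medians were not corrected for GC content. Fold changes of the members varied with GC content (Spearman's correlation -0.466), as described next.

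The fold changes of the members varied with the GC content of their transcripts. Over the 57 members, Spearman's correlation of the log2 ratio to the wildtype mean with transcript GC content was -0.48 in knockout replicate 1, -0.403 in replicate 2 and -0.0627 in replicate 3. Over 14359 genes tested with a GC value it was -0.439, -0.403 and 0.019 in the same libraries. The members share libraries and the wildtype mean with one another, so these values are a description of the libraries. In the third of members with the lowest GC content (up to 43.24%), the median log2 ratio was 0.036 in replicate 1, 0.0085 in replicate 2 and -0.0034 in replicate 3. In the third with the highest GC content (51.83% and above) it was -0.069 in replicate 1, -0.076 in replicate 2 and -0.021 in replicate 3.

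HSF1 (64.73% GC), HSPB1 (64.33%), HSPB6 (62.8%), HSPA1A (59.73%), HSPA1B (58.75%) and DNAJC5 (57.71%) stood at the high end, and HSPA4L (38.05%), DNAJC12 (39.3%) and DNAJC13 (41.45%) at the low end. Removing from each library its trend with GC content brought the correlation of fold change with GC content from -0.466 to -0.03 over the members. The trend was fitted over the genes tested, members included, so this fall follows from the correction and is not a test. The corrected log2 fold change was -0.056 for HSPA1A, -0.11 for HSPA1B, 0.087 for HSPA4L, 0.051 for DNAJC13 and -0.089 for DNAJB1, none of them called. For DNAJC12 the correction made the difference larger. The part of GC content in the fold changes of single members was not tested beyond this correction.

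Without knockout replicate 3, 8 of 57 members were called (14%), where 12.7% of all genes tested were called (3.58% higher and 9.1% lower). HSPA4L and DNAJC13 were higher, and HSF1, HSPA1A, HSPA1B, HSPB1, DNAJB1 and DNAJB12 were lower. With GC correction and without that library the 1 member called was DNAJC12, where 2.64% of all genes were called. With knockout replicate 3 alone against wildtype 0 members were called, where 0.83% of genes were called; that fit takes its spread from wildtype and assumes the same for the single knockout library.

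**Figure D4:**
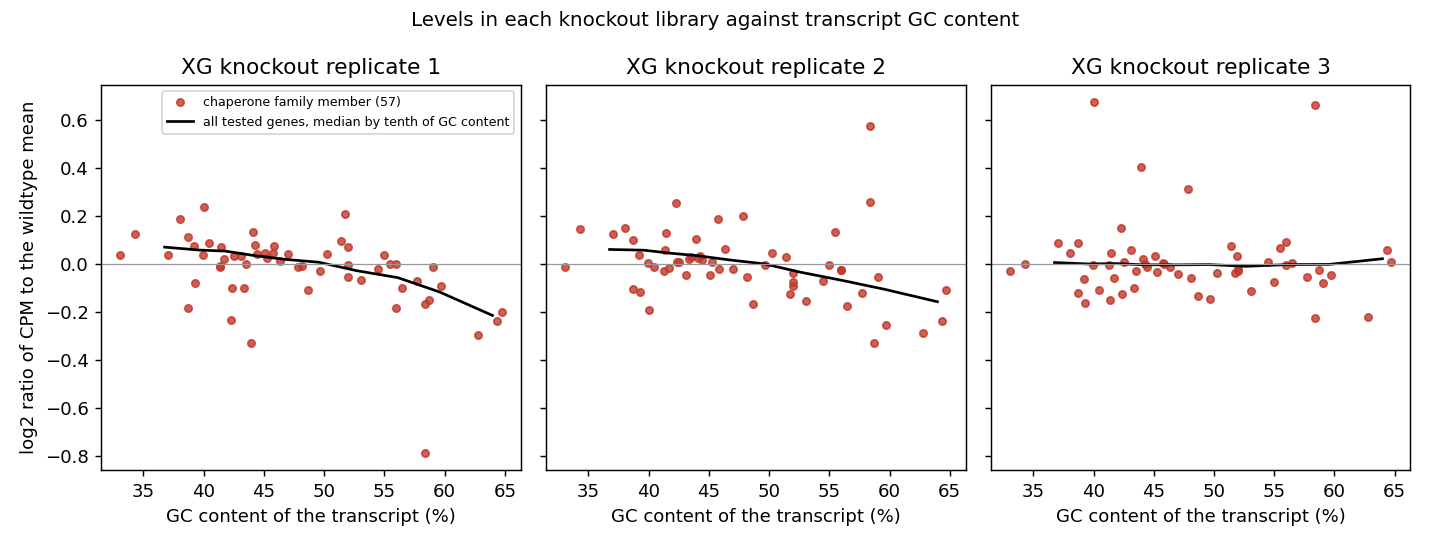
Log2 ratio of CPM to the wildtype mean (y axis) against GC content of the longest transcript in percent (x axis), with 1 panel for each XG knockout library; red points are the 57 tested members and the black line is the median over all genes tested in 10 bins of GC content. The line falls with GC content in replicates 1 and 2 and is flat in replicate 3, and the correlations over the members are -0.48, -0.403 and -0.0627.

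Other genes of protein folding were counted from lists of related functions. Co-chaperones of HSP90 and HSP70 were called in 0 of 26 tested, 13 with positive and 13 with negative fold changes; their median was -0.0039 on the log2 scale. The smallest p among them belonged to SUGT1, a client adaptor of HSP90, at 211 ± 6.55 CPM in knockout and 195 ± 0.878 CPM in wildtype (0.12 in log2 fold change, edgeR adjusted p = 0.0636), and to BAG6, which handles mislocalised membrane proteins, at 385 ± 15.9 CPM in knockout and 417 ± 5.36 CPM in wildtype (-0.12, adjusted p = 0.064; SD, n = 3 each). Of these 26, 9 were called without knockout replicate 3, where 12.7% of all genes were; FKBP5, SUGT1 and TOMM70 were higher and CDC37, FKBP8, PPP5C, STUB1, HSPBP1 and BAG6 lower, the smallest adjusted p being 1.35e-08 for FKBP8, a membrane-anchored co-chaperone of HSP90. With GC correction 0 of the 26 were called.

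The cytosolic chaperonin and prefoldin subunits were called in 0 of 14 (median -0.0096 on the log2 scale). PFDN4 had 39.9 ± 2.59 CPM in knockout and 35.7 ± 2.58 CPM in wildtype, and VBP1, also of prefoldin, had 122 ± 4.23 CPM in knockout and 116 ± 2.21 CPM in wildtype (SD, n = 3 each). Other mitochondrial chaperones and proteases were called in 0 of 14 (median -0.0061). TRAP1, the mitochondrial HSP90, had 307 ± 11.6 CPM in knockout and 327 ± 6.46 CPM in wildtype, and GRPEL2, an exchange factor of HSPA9, had 53.8 ± 2.16 CPM in knockout and 49.6 ± 3.27 CPM in wildtype. Of these 14, 4 were called without knockout replicate 3, where 12.7% of all genes were called. TRAP1 (edgeR adjusted p = 0.00136) and the proteases LONP1 (1.35e-05) and CLPP (0.000132) were lower and GRPEL2 (0.0367) higher. That setting called 0 of the 14 chaperonin and prefoldin subunits, and GC correction called 0 in both lists. HTRA2, also a mitochondrial protease, was not called in those settings or by the main test (edgeR adjusted p = 0.524). Its adjusted p ran between 0.0101 and 0.9 over the alternatives.

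Heat shock response genes outside the families were called in 0 of 17 (median -0.0081), with HSPBP1 at 51.9 ± 5.2 CPM in knockout and 60.3 ± 2.79 CPM in wildtype and ZFAND2A, which is induced by arsenite, at 9.65 ± 0.882 CPM in knockout and 11.6 ± 0.347 CPM in wildtype (SD, n = 3 each). This list shares BAG3, CHORDC1, HSPBP1, FKBP4, STIP1, AHSA1, PTGES3 and CACYBP with the co-chaperones. Counts and medians of these lists are therefore not separate, and the call of HSPBP1 stands in both. With knockout replicate 3 left out, HSPBP1 (edgeR adjusted p = 2.71e-06) and ZFAND2A (0.0393) were the 2 of 17 called, both lower. In that setting 12.7% of all genes were called. Over the alternatives the adjusted p of ZFAND2A ran between 0.0231 and 0.403. With all libraries, ATF3 (log2 fold change 0.27, edgeR adjusted p = 0.144) and HSF4 (0.57, adjusted p = 0.16) were higher in knockout on average and not called. HSF4 had an adjusted p between 0.0436 and 0.463 over the alternatives. Of the 17 fold changes, 7 were positive and 10 negative. The endoplasmic reticulum chaperones that the choice left out were called in 0 of 11 (median -0.0066). HSP90B1, the HSP90 of that compartment, had 1281 ± 36.5 CPM in knockout and 1209 ± 16.4 CPM in wildtype (0.083 in log2 fold change, edgeR adjusted p = 0.115), and SDF2L1 had 32.1 ± 3.68 CPM in knockout and 37.2 ± 2.99 CPM in wildtype (-0.22, adjusted p = 0.131; SD, n = 3 each). Of the 11, 3 were called without knockout replicate 3, where 12.7% of all genes were called. SDF2L1 (edgeR adjusted p = 6.66e-05) was lower and HSP90B1 (0.00352) and HSPA13 (0.0171) were higher. With GC correction 0 were called in either list.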

How the data were processed

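Libraries were made from mRNA of 3 XG knockout and 3 wildtype samples with a stranded kit, per the labels' protocols. The deposited counts are whole fragments per gene on exons of GENCODE 33 genes, made by the authors with featureCounts (Subread 2.0.1, reverse strand), without fragments on several genes or places, per the file headers; reads went through bcl2fastq and STAR 2.7.6a on GRCh38, per the submitters' processing notes. Log2 fold changes and p-values were deposited too, from DESeq2 1.38.3 in R 4.2.2 per those notes.

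The direction of the deposited log2 values was checked against the counts of XG, where both had the same sign. The authors' deposited mean signal (counts over size factors) and test score were not used. Total counts per library, from 22557187 to 31214099, gave a median SE of 0.0636 on the log2 scale. Same-numbered knockout and wildtype libraries did not deviate together. With 3 libraries in each group this cannot show that no pairing exists. The main test used no pairing, and the replicate block was an alternative.

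Genes kept by filterByExpr (minimum count 10, total 15; 14425 genes, 99.92% of counts) were scaled by TMM and tested with edgeR 4.0.16 (quasi-likelihood, two-sided, no covariates; R 4.3.3) at a Benjamini-Hochberg adjusted p of 0.05 over all of them. CPM uses TMM library sizes. Alternatives were other scalings, DESeq2 1.42.0, limma 3.58.1 voom, other filters, the replicate block, libraries left out, and removal of each library's lowess trend (span 0.5) on the GC content of the longest GENCODE 29 transcript (99.54% of genes tested); GC correction with libraries left out was chosen after seeing the data. The members and lists were chosen with earlier results of these data known. Members named are the 10 with the smallest p, the 10 with the highest level per kilobase, any called and a list of core chaperones; of each other list, the 2 of smallest p. Other list genes called without knockout replicate 3, HTRA2, ATF3, HSF4 and the remaining members were named after their values were seen. Tests were checked on simulated data.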

Additional observations from a re-analysis of the deposited data

How the results depend on the processing

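Apart from GC correction with a library left out, 384 fold changes of the 24 named members were recomputed: 330 kept their direction and their side of the threshold, 11 passed it anew (8 members, named in the report) and 43 changed sign (13 members), none of which passed the threshold on either side; the cause was not tested. Members called were 2 with no filter on low counts and 1 with GC correction. With GC correction and the replicate block 1 was called, where 1.28% of all genes were called. With 1 library left out they were 8 without knockout replicate 3 and 0 without any other. With GC correction and 1 library left out they were 0 to 2, where 0.896 to 2.68% of all genes were called. They were 0 without wildtype replicate 1 and DNAJC12 otherwise, with DNAJB1 added without knockout replicate 1 and DNAJA4 without wildtype replicate 3. With relative log expression or upper quartile scaling, DESeq2, voom, the stricter filter, the block alone, an adjusted p under 0.01 or knockout replicate 3 alone they were 0. Genes called, 196 in all, were 647 with no filter, 37 with the replicate block, 339 with GC correction, 125 with knockout replicate 3 alone, 33 at 0.01, and 18 to 1851 with 1 library left out (1851 without knockout replicate 3; 67 and 41 without knockout replicates 1 and 2; 24, 26 and 18 without wildtype replicates 1, 2 and 3). The pairing by replicate number had correlations of -0.0459, -0.0239 and -0.0512 and changed no call of a member. The members' median log2 fold change was 0.0048 with upper quartile scaling, -0.013 with GC correction, -0.0129 with GC correction and the block, and -0.0138 to 0.0095 with 1 library left out. With no filter, 6 of 27 co-chaperones listed, 1 of 15 mitochondrial and 1 of 18 heat shock genes were called, the first and last of these lists sharing genes. So were 2 of 11 endoplasmic reticulum genes, where 2.37% of all genes were called. Upper quartile scaling called 1 co-chaperone, where 1.42% of all genes were called. Log2 fold changes that changed sign were, with upper quartile scaling, HSPA8 0.00266; with limma voom, HSP90AA1 -0.000436; with at least 100 counts in 3 libraries, HSP90AA1 -0.000156, HSPA9 -0.000363; with GC correction, DNAJB6 0.0229, DNAJC8 -0.009, HSF1 0.0176, HSP90AA1 -0.0187, HSPA4 -0.0132, HSPA9 -0.0253, HSPH1 -0.0257; with GC correction with replicate block, DNAJB6 0.0242, DNAJC8 -0.00808, HSF1 0.0174, HSP90AA1 -0.0186, HSPA4 -0.0129, HSPA9 -0.0255, HSPH1 -0.0257; with XG knockout replicate 3 alone, DNAJC7 -0.0113, DNAJC8 -0.0128, HSF1 0.00665, HSP90AA1 -0.0313, HSPA9 -0.0307, HSPB1 0.059, HSPE1 -0.0372, HSPH1 -0.00482. With 1 library left out, the ranges of those that changed sign were HSP90AA1 -0.0155 to 0.0166, HSPH1 -0.00083 to 0.0207, DNAJC7 -0.00273 to 0.0395, HSPA9 -0.0185 to 0.0161, HSPE1 -0.00268 to 0.0431, DNAJA1 -0.0369 to 0.000845, DNAJB6 -0.0393 to 0.0148, HSF2 -0.0583 to 0.0357, HSPA8 -0.0314 to 0.0095, DNAJC8 -0.00378 to 0.0321. Fold changes of members under about 1 CPM, such as HSPA6, are limited by depth.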
